A study of Mus musculus with 6 samples.

Results

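The mouse mitochondrial genome encodes 13 proteins, and the 10 followed here are mt-Nd1, mt-Nd2, mt-Nd4, mt-Nd5, mt-Nd6, mt-Cytb, mt-Co1, mt-Co2, mt-Co3 and mt-Atp6. They were taken by name, with Ensembl identifiers matched to mouse symbols, and make up 10 of 52636 genes in the count tables and 10 of 15816 with enough counts to be tested. The 6 RNA-seq libraries came from the mouse embryonic stem cell line E14 after 4 days in 5 µM retinoic acid (written µm in the labels) with LIF and the inhibitors of MEK and GSK3 withdrawn. There were 3 wild-type libraries and 3 of the line labelled Enhancer cluster-KO, and the series' design text calls the cells NPC and the replicates biological. The position of the deletion and the number of knockout clones are not stated in the labels.

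Respiratory complexes in the inner mitochondrial membrane pass electrons to oxygen and pump protons, and ATP synthase uses the gradient to make ATP. Most of their subunits come from nuclear genes, while the mitochondrial genome supplies core membrane subunits of complexes I, III and IV and of ATP synthase. It is copied into long RNAs from both strands, called heavy and light, which are cut apart mostly at the tRNAs between the genes, so that the levels of single mRNAs depend largely on how each is processed and how long it lasts.

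Part of the mitochondrial genome also lies in the nuclear genome as a copy, and this bears on which reads can be given to a gene. On the minus strand of chromosome 1 (GRCm38, chr1:24611535-24616197), 7 annotated pseudogenes in a row matched mitochondrial genes at 99.7 to 100% identity over at least 100 bases. They were Gm29216, a copy of the last 483 bases of mt-Co1, Gm28661 (mt-Co2), Gm10925 (mt-Atp6), Gm28437 (mt-Co3), Gm28438 (mt-Nd3), Gm10222 (mt-Nd4l) and Gm28439, a copy of the first 876 bases of mt-Nd4. Reads aligned to more than 1 place are tallied apart in the deposited tables and are given to no gene. The sequences below show how little separates these pairs, each as the first bases of the copy beside the same stretch of the mitochondrial gene, with bases that differ in capitals. They are taken from the GENCODE M21 transcripts.

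The first pair is mt-Co2 (chrM:7013-7162, plus strand) and its copy (chr1:24615416-24615565, minus strand), which did not differ over these 150 bases.
mt-Co2: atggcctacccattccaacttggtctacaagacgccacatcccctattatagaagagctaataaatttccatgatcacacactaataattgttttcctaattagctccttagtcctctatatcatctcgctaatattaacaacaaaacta
Gm28661: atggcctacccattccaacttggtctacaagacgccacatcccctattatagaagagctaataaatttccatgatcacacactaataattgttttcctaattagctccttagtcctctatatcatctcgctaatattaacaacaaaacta

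The second pair is mt-Co1 at the point where its copy begins (chrM:6381-6530, bases 1054 to 1203 of the gene) and the start of Gm29216 (chr1:24616048-24616197). All 6 differences lie at the edge of the copy, and the rest of the stretch was identical.
mt-Co1: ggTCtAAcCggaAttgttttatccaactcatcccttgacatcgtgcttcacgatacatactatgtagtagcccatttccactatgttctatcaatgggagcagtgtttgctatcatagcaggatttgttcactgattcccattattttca
Gm29216: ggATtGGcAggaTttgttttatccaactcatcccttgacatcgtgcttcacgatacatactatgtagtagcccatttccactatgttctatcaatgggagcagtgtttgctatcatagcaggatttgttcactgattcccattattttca

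The third pair is mt-Cytb (chrM:14145-14294) and Gm11410, a processed pseudogene on the plus strand of chromosome 4 (chr4:80003989-80004138). It is shown because 11 differences in 150 bases are spread along the stretch.
mt-Cytb: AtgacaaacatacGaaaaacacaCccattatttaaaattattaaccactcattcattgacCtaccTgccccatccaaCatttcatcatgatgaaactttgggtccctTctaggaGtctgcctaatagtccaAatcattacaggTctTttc
Gm11410: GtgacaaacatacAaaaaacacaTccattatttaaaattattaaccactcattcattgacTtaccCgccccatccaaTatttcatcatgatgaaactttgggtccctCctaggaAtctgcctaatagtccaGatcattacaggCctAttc

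The shared sequence split the 10 genes into groups. Of the 100-base windows of each gene, 99.5% had an exact copy in a nuclear annotated transcript for mt-Co2, 99.5% for mt-Atp6 and 99.9% for mt-Co3. The share was 60.8% for mt-Nd4, 30.8% for mt-Co1 and 3.19% for mt-Nd2, and 0% for mt-Nd1, mt-Nd5, mt-Nd6 and mt-Cytb. With windows of 50 bases it was 62.2% for mt-Nd4, 51.1% for mt-Co1, 8.19% for mt-Nd2 and 7.61% for mt-Nd5. It stayed at 0% for mt-Nd1, mt-Nd6 and mt-Cytb. With windows of 150 bases it was 59.2% for mt-Nd4 and 23.6% for mt-Co1. Read length is not stated in the labels. The search covered annotated transcripts and not the rest of the nuclear genome.

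The counts fell into the same groups. In all 6 libraries mt-Co2 had 189 to 398 counts, mt-Co3 109 to 308 and mt-Atp6 69 to 179, while the other 7 genes had 4062 (mt-Nd6) to 134713 (mt-Co1). Per kb of gene, wild-type levels were 33.7 ± 2.77 CPM for mt-Co2, 18.5 ± 2.41 for mt-Co3 and 16.04 ± 3.66 for mt-Atp6 (mean ± SD, n = 3), against 3858 ± 70.8 for mt-Co1. CPM are counts scaled to the library size after TMM. Only reads placed in 1 location enter the counts of mt-Co2, mt-Co3 and mt-Atp6, and the part of the copies in their low levels was not tested.

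**Figure D1:**
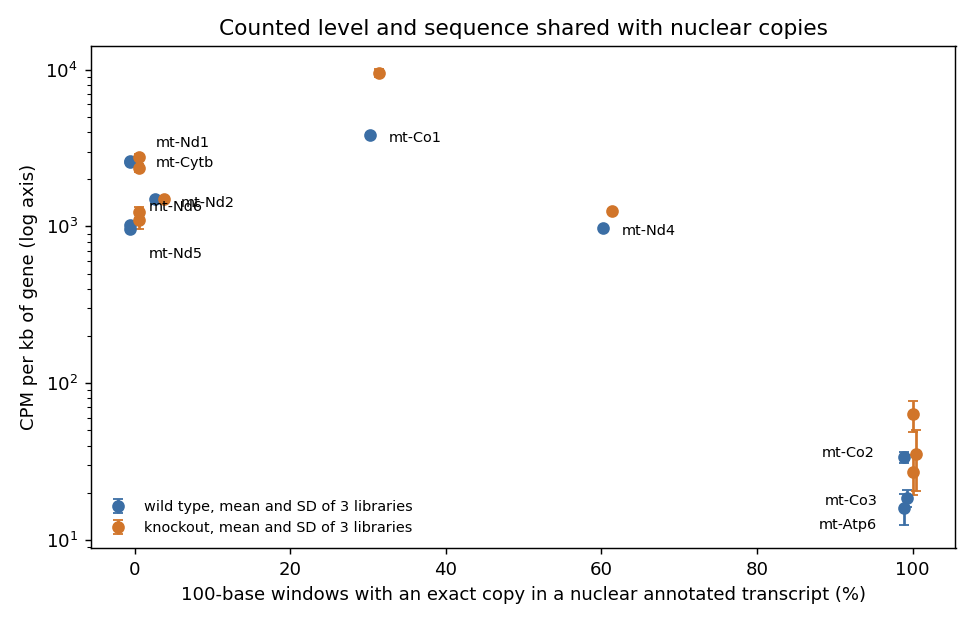
CPM per kb of gene (log axis, mean and SD of 3 libraries per group) against the percent of 100-base windows with an exact copy in a nuclear annotated transcript, for the 10 genes. The 3 genes with nearly every window copied sit below 100 CPM per kb in both groups, and the other 7 lie near 1000 or above.

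The 10 genes together held more of the gene counts in the knockout. Their summed share was 1.65, 1.62 and 1.68% for wild type against 2.50, 2.59 and 2.80% for the knockout (replicates 1 to 3 of each). Every knockout library was above every wild-type library, with means of 1.65 ± 0.0258% and 2.63 ± 0.155% (SD, n = 3 per group) and a ratio of 1.60. The exact two-sided permutation test gave p = 0.1, the smallest that 3 against 3 libraries allow.

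Nearly all of that difference was in mt-Co1. Its share of gene counts was 0.587, 0.584 and 0.604% for wild type against 1.40, 1.45 and 1.58% for the knockout. Without mt-Co1, the other 9 genes summed to 1.06 ± 0.0160% and 1.16 ± 0.0596%, a ratio of 1.09 (exact permutation p = 0.1). The 5 genes with under 5% of windows copied were mt-Nd1, mt-Nd2, mt-Nd5, mt-Nd6 and mt-Cytb. They summed to 0.919 ± 0.0136% and 0.974 ± 0.0575%, a ratio of 1.06 (exact permutation p = 0.2). There the groups overlapped, with knockout replicate 1 at 0.923% and wild-type replicate 3 at 0.930%. Within the 10 genes, the part taken by mt-Co1 went from 35.9 ± 0.239% to 56.0 ± 0.368%, and that of mt-Cytb from 17.9 ± 0.188% to 10.3 ± 0.0691%.

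**Figure D2:**
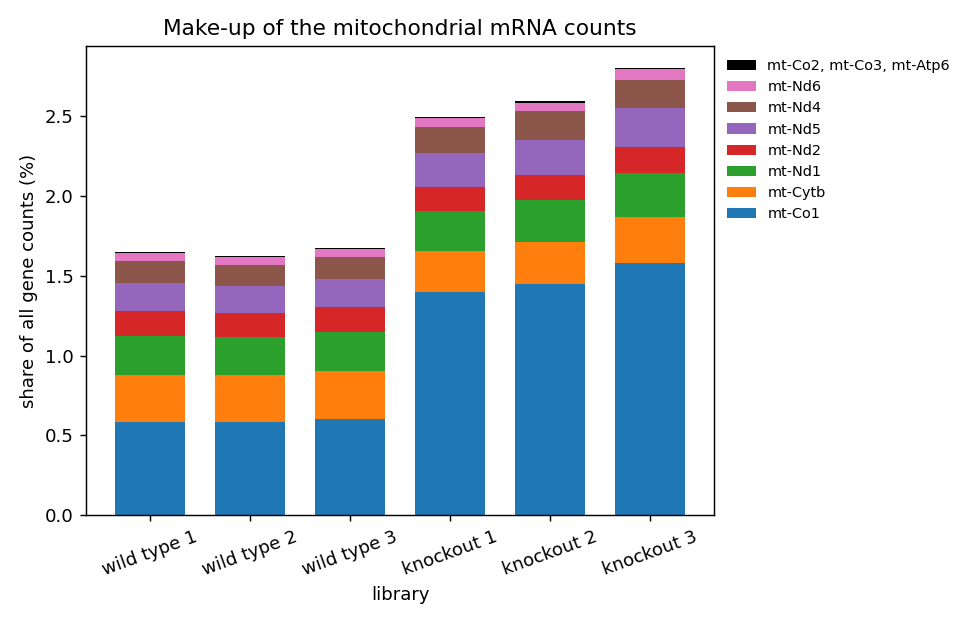
Share of all gene counts (%) in each of the 6 libraries, stacked by gene. The stacks reach 1.62 to 1.68% in wild type and 2.50 to 2.80% in the knockout, and the lowest band, mt-Co1, accounts for most of the step.

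Gene by gene, 7 of the 10 rose in the knockout, 1 fell and 2 did not pass the test (edgeR quasi-likelihood test, Benjamini-Hochberg adjusted p under 0.05 over all genes). Of all tested genes 68.6% passed, 34.5% upwards and 34% downwards. The knockout and wild-type values did not overlap for 6 of the 10, against 70.9% of all tested genes. The median log2 fold change, knockout over wild type, was 0.37 for the 10 genes and 0.0091 for all tested genes. A change in CPM in a bulk library does not tell apart less RNA per cell and fewer cells of a type.

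**Figure D3:**
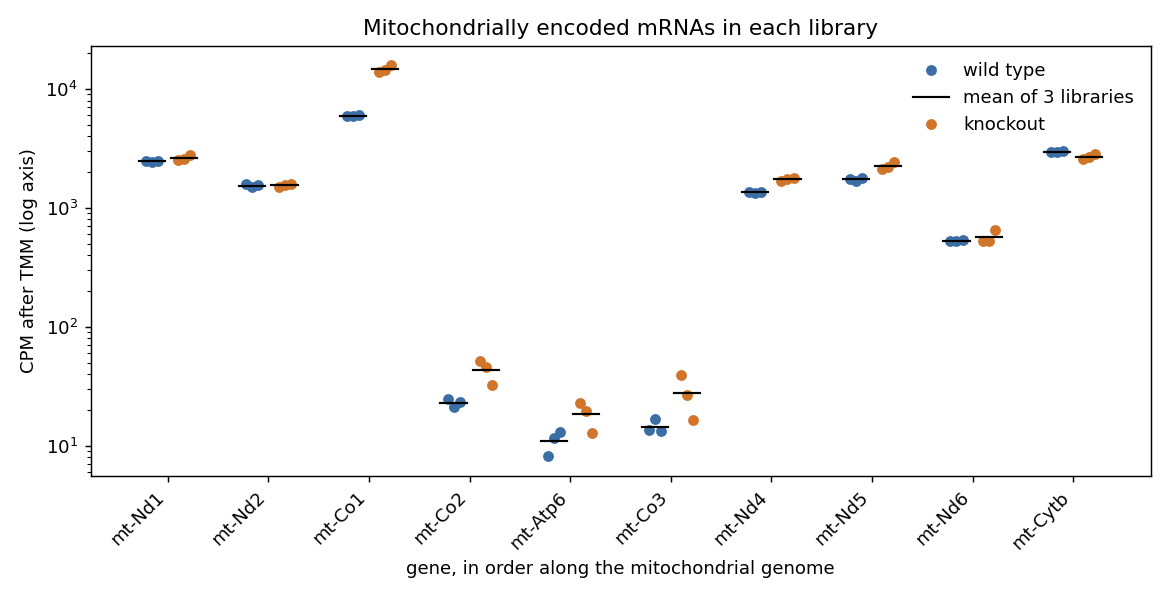
CPM after TMM (log axis) of the 10 genes in each library, in order along the mitochondrial genome, with a bar at the mean of 3 libraries. The 2 groups are far apart for mt-Co1 and close together for mt-Nd1, mt-Nd2, mt-Nd6 and mt-Cytb.

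Complex IV, cytochrome c oxidase, takes its catalytic core from mt-Co1, mt-Co2 and mt-Co3. For mt-Co1 (ENSMUSG00000064351, chrM:5328-6872, plus strand), which carries the heme and copper centre where oxygen is reduced, there were wild-type CPM of 5917, 5879 and 6085 against knockout CPM of 13993.5, 14374.5 and 15777.7. All 3 knockout libraries lay far above the wild-type range. The log2 fold change was 1.30 (SE 0.024, edgeR adjusted p = 6.54e-25), a ratio of means of 2.47.

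For mt-Co2, which receives electrons from cytochrome c, there were wild-type CPM of 24.8, 21.1 and 23.2 against knockout CPM of 51.3, 45.9 and 32.4. The groups did not overlap, and knockout replicate 3 was the lowest of its group (log2 fold change 0.91, SE 0.12, edgeR adjusted p = 4.62e-07). For mt-Co3, a core subunit without metal centres, there were wild-type CPM of 13.5, 16.7 and 13.4 against knockout CPM of 39.7, 26.8 and 16.4. Here knockout replicate 3 lay among the wild-type libraries (log2 fold change 0.91, SE 0.19, edgeR adjusted p = 1.83e-04). Without knockout replicate 1 the log2 fold change of mt-Co3 was 0.56 (edgeR adjusted p = 0.00331).

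ATP synthase takes subunit a, part of its proton channel, from mt-Atp6, whose first 43 bases overlap the end of mt-Atp8. It had wild-type CPM of 8.16, 11.6 and 13.01 against knockout CPM of 23.1, 19.5 and 12.8. Again knockout replicate 3 lay within the wild-type range, and the other 2 knockout libraries above it. The log2 fold change was 0.75 (SE 0.18, edgeR adjusted p = 7.45e-04).

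The copies on chromosome 1 offer a second reading of the same stretches, since reads of a pair are told apart only by rare differences or by their edges. Gm28661, the copy of mt-Co2, had 129, 164 and 100 wild-type counts against 219, 221 and 215 knockout counts. Gm28437, the copy of mt-Co3, had 105, 104 and 97 wild-type counts against 233, 169 and 211 knockout counts. Gm10925, the copy of mt-Atp6, had 175, 173 and 213 wild-type counts against 332, 272 and 319 knockout counts. For all 3 copies every knockout count was above every wild-type count, knockout replicate 3 included. In CPM, 70.9% of all tested genes also had no overlap between the groups.

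In the same fit the log2 fold changes were 0.84 (SE 0.12) for Gm28661, 1.10 (SE 0.14) for Gm28437 and 0.81 (SE 0.12) for Gm10925. That of Gm29216, the copy of the end of mt-Co1, was 1.26 (SE 0.16), beside 1.30 for mt-Co1. These 4 copies passed the test (edgeR adjusted p 7.63e-08 to 1.59e-06), as did 68.6% of all tested genes. Gm28439, the copy of the start of mt-Nd4, was at 0.33 (SE 0.18) and did not pass (edgeR adjusted p = 0.0998), beside 0.36 for mt-Nd4. Gm13340, a copy of all of mt-Co1 on chromosome 2 (97.6% identity), had 10 to 17 counts per library. Its log2 fold change was 0.61 (SE 0.38) and did not pass (edgeR adjusted p = 0.156). Other copies off chromosome 1, Gm13341 (mt-Co2), Gm13339 (mt-Nd2) and Gm4076 (mt-Nd5), had 0 to 2 counts and were not tested. In the pair of mt-Nd3, which is not among the 10, the estimates had opposite signs, with -0.93 (SE 0.49, edgeR adjusted p = 0.0958) for the gene and 1.42 (SE 0.085) for Gm28438. Which of the reads given to a copy come from the mitochondrial gene cannot be told apart where the sequences are identical.

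**Figure D4:**
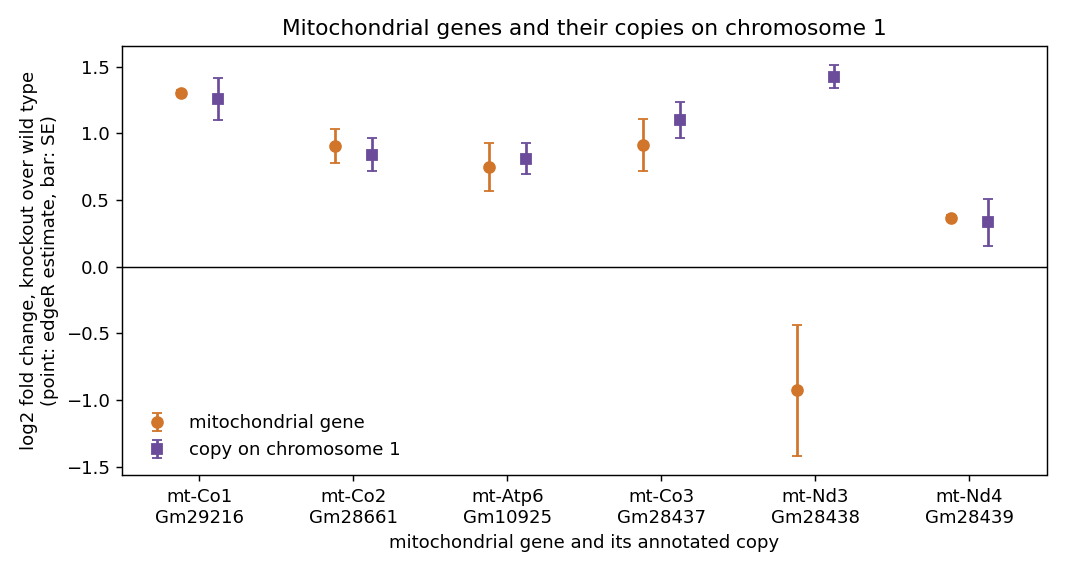
Log2 fold change, knockout over wild type (edgeR estimate with SE), of 6 mitochondrial genes and their annotated copies on chromosome 1, for the pairs in which both were tested. The copies of mt-Co1, mt-Co2, mt-Atp6 and mt-Co3 are at 0.81 to 1.26 and that of mt-Nd4 at 0.33, while the mt-Nd3 pair lies on opposite sides of 0, at -0.93 for mt-Nd3 and 1.42 for its copy.

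Complex I, the first proton pump of the chain, has its membrane arm built around the mt-Nd subunits, and the changes of these 5 genes ranged from 0.01 to 0.37 on the log2 scale. For mt-Nd1 (chrM:2751-3707), which sits next to the quinone site, there were wild-type CPM of 2479, 2437 and 2503 against knockout CPM of 2537, 2598 and 2792. The groups were next to each other without overlap, with a log2 fold change of 0.10 (SE 0.024, edgeR adjusted p = 9.47e-04), and 0.054 without knockout replicate 3 (edgeR adjusted p = 0.0109). For mt-Nd2, a proton-pumping subunit, there were wild-type CPM of 1578, 1496 and 1552 against knockout CPM of 1510, 1560 and 1592. The groups overlapped (log2 fold change 0.01, SE 0.025, edgeR adjusted p = 0.693).

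The neighbouring pumping subunits mt-Nd4 and mt-Nd5 rose by similar amounts. For mt-Nd4 there were wild-type CPM of 1359, 1324 and 1370 against knockout CPM of 1679, 1764 and 1775 (log2 fold change 0.36, SE 0.024, edgeR adjusted p = 6.77e-13). For mt-Nd5 there were wild-type CPM of 1768, 1690 and 1779 against knockout CPM of 2108, 2198 and 2454 (log2 fold change 0.37, SE 0.034, edgeR adjusted p = 3.25e-10). Neither gene's groups overlapped. The ratio of mt-Nd4 to mt-Nd5 counts was 0.774 ± 0.00834 in wild type and 0.774 ± 0.0441 in the knockout.

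On the light strand lies 1 of the 10, mt-Nd6 (chrM:13552-14070), and its last 14 bases overlap the end of mt-Nd5 on the heavy-strand side. There were wild-type CPM of 526.8, 524.3 and 534.3 against knockout CPM of 523.3, 531.6 and 648.3. Only knockout replicate 3 stood above the wild-type libraries, and the gene did not pass (log2 fold change 0.10, SE 0.052, edgeR adjusted p = 0.0787). Without knockout replicate 3 the log2 fold change was -0.0031 (edgeR adjusted p = 0.942), and without knockout replicate 1 it was 0.16 (edgeR adjusted p = 0.00435). The counts were treated as not separating strands, so heavy-strand RNA running opposite mt-Nd6 cannot be told apart from its own mRNA.

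Complex III has 1 mitochondrially encoded subunit, cytochrome b, which carries electrons between the quinone sites. Its gene mt-Cytb (chrM:14145-15288) had wild-type CPM of 2950, 2960 and 3004 against knockout CPM of 2573, 2670 and 2856. It was the only 1 of the 10 that fell, by 0.14 on the log2 scale (SE 0.024, edgeR adjusted p = 1.28e-05), and the groups did not overlap. There were 2.01 ± 0.0197 counts of mt-Co1 for each count of mt-Cytb in wild type and 5.45 ± 0.0710 in the knockout (SD, n = 3), so the spread within a group was far smaller than the step between groups.

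Per length, mt-Co1 was the most abundant of the 7 well-counted genes in both groups. On a second scale, the CPM of each whole gene was divided by its number of 100-base window positions with no exact copy. This takes reads as 100 bases long and counted only at such positions, and neither was tested. Wild-type levels per 1000 positions were 5961 ± 109.4 CPM for mt-Co1, 2882 ± 38.7 for mt-Nd1, 2843 ± 27.7 for mt-Cytb and 2691 ± 47.5 for mt-Nd4. They were 1696 ± 45.9 for mt-Nd2, 1258 ± 12.3 for mt-Nd6 and 1012 ± 28.3 for mt-Nd5. Of neighbours in this order, mt-Nd1 and mt-Cytb lay within their spread. Per kb of whole gene mt-Nd4 was instead at 980.2 ± 17.3 CPM, close to mt-Nd5 at 957.0 ± 26.8.

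In the knockout the levels per 1000 such positions were 14715 ± 939.6 CPM for mt-Co1, 3464 ± 104.6 for mt-Nd4, 3080 ± 154.8 for mt-Nd1 and 2584 ± 137.5 for mt-Cytb. On this scale mt-Nd4 lay below mt-Nd1 and mt-Cytb in wild type and above both in the knockout. Per kb of whole gene it lay below both in both groups, with 1262 ± 38.1 CPM in the knockout against 2761 ± 138.8 for mt-Nd1 and 2360 ± 125.6 for mt-Cytb. Per 1000 copy-free positions mt-Nd2 was at 1710 ± 45.3, mt-Nd6 at 1352 ± 166.4 and mt-Nd5 at 1306 ± 104.0, the last 2 within their spread.

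Whether the 10 genes moved by different amounts was tested with libraries scaled to the summed counts of the 10. Relative to that pool mt-Co1 rose by 0.64 (SE 0.024, edgeR adjusted p = 4.27e-18), and the other 6 well-counted genes fell, from -0.29 for mt-Nd5 and mt-Nd4 to -0.80 (SE 0.035) for mt-Cytb. mt-Co2 (0.26), mt-Co3 (0.27) and mt-Atp6 (0.10) did not pass (edgeR adjusted p 0.109 to 0.656). On this scale 76.8% of all tested genes passed, 10.4% upwards and 66.4% downwards. Since mt-Co1 is a large part of the pool, the test was repeated with the other 9 as the pool. Then 6 rose and 2 fell, with mt-Co1 at 1.19 (SE 0.021), mt-Co2 at 0.80, mt-Co3 at 0.81, mt-Atp6 at 0.64, mt-Nd4 and mt-Nd5 at 0.25, mt-Nd2 at -0.10 and mt-Cytb at -0.25, while mt-Nd1 (-0.02) and mt-Nd6 (-0.02) did not pass, and 66.5% of all tested genes passed.

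The rest of the mitochondrial genome was uneven as well. Of the ribosomal RNAs, mt-Rnr1, of the small mitochondrial ribosomal subunit, had wild-type CPM of 216.4, 192.6 and 203.1 against knockout CPM of 415.3, 405.9 and 445.6 (log2 fold change 1.05, SE 0.046, edgeR adjusted p = 1.44e-16). mt-Rnr2, of the large subunit, had wild-type CPM of 312.7, 275.8 and 302.0 against knockout CPM of 368.6, 395.6 and 388.7 (log2 fold change 0.37, SE 0.045). Both rose with no overlap, and the count ratio of mt-Rnr1 to mt-Rnr2 went from 0.688 ± 0.0135 to 1.10 ± 0.0645.

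Of the 22 tRNA genes 14 had no count in any library, and among 8 tested 2 rose and 1 fell (37.5% called against 68.6% of all tested genes). mt-Tp, on the light strand beside the control region, had 149, 137 and 132 wild-type counts against 300, 346 and 361 knockout counts (log2 fold change 1.36, SE 0.10). mt-Ts1, on the light strand and overlapping the last 3 bases of mt-Co1, had 27, 31 and 25 wild-type counts against 68, 80 and 48 knockout counts (log2 fold change 1.34, SE 0.24). mt-Te, between mt-Nd6 and mt-Cytb, had 135, 104 and 116 wild-type counts against 47, 53 and 49 knockout counts, and fell by 1.16 (SE 0.17). Each of these lay next to or opposite RNA of other genes, which the counts do not separate. The other 5 tested tRNA genes, mt-Tq, mt-Tw, mt-Ta, mt-Ty and mt-Tt, did not pass, with log2 fold changes from -0.60 (mt-Tq) to 0.82 (mt-Tt).

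Of the 3 remaining protein genes, mt-Nd4l had 4 to 23 counts and mt-Nd3 3 to 15, and neither passed the test, while mt-Atp8 had 0 to 2 counts and was not tested. For mt-Atp8, 0% of the 100-base windows had an exact copy in an annotated transcript. The gene starts between mt-Co2 and mt-Atp6. On chromosome 1 the stretch between their copies (24614651 to 24614885) held no matched transcript, and its sequence was not searched. The 0% therefore does not tell whether mt-Atp8 is copied there. Over mt-Nd3 most reads were given to its copy. Gm28438 had 193, 238 and 182 wild-type counts against 477, 545 and 514 knockout counts (log2 fold change 1.42, SE 0.085), where mt-Nd3 had 15, 12 and 10 and 6, 9 and 3. The pair differs at 1 of 345 aligned bases, the third of the gene (chrM:9459-9518 and chr1:24613060-24613119).
mt-Nd3: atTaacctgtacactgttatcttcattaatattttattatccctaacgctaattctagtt
Gm28438: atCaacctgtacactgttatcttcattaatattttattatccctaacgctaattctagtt

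**Figure D5:**
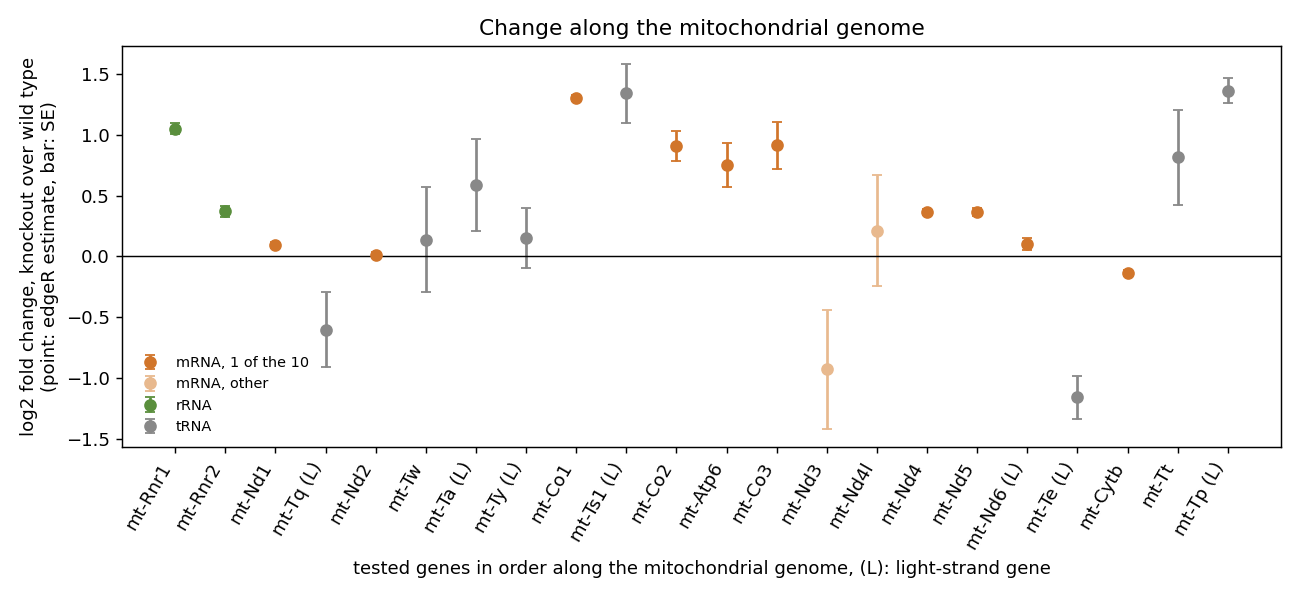
Log2 fold change, knockout over wild type (edgeR estimate with SE), of the 22 tested mitochondrial genes in order along the genome, with light-strand genes marked (L). The estimates are near 0 at mt-Nd1 and mt-Nd2, 0.75 to 1.30 for the mRNAs from mt-Co1 to mt-Co3, 0.36 and 0.37 at mt-Nd4 and mt-Nd5 and below 0 at mt-Cytb, with mt-Nd3 (-0.93), mt-Nd4l (0.21), mt-Nd6 (0.10) and mt-Te (-1.16) lying between them.

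Nuclear genes that copy, transcribe and process the mitochondrial genome did not move one way. Nor did all tested genes, of which 68.6% were called, 34.5% upwards and 34% downwards. In the list for its copying and packaging, 6 of 16 tested rose and 5 fell (median log2 fold change -0.10). That is 68.8% called, near the share of all tested genes. The mitochondrial topoisomerase Top1mt rose by 1.41 (SE 0.12), the polymerase subunit Polg2 by 1.36 (SE 0.17) and Dguok, a deoxynucleoside kinase, by 0.81 (SE 0.10). The helicase Twnk fell by 0.58 (SE 0.079), the pyrimidine carrier Slc25a33 fell by 0.58 (SE 0.10) and Atad3a fell by 0.27 (SE 0.049).

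For the transcription machinery 1 of 9 rose and 1 fell (median -0.01), a share of 22.2% called against 68.6% of all tested genes. The elongation factor Tefm fell by 0.85 (SE 0.17), from 12.6 ± 0.521 to 6.99 ± 1.21 CPM, and Tfb1m, a methyltransferase of the small ribosomal RNA, rose by 0.63 (SE 0.17). The RNA polymerase gene Polrmt was at -0.10 (SE 0.086, edgeR adjusted p = 0.291) and did not pass. In the list for the cutting of the long RNAs, which is not limited to enzymes that cut, 1 of 8 rose and 5 fell (75% called, median -0.42). Tbrg4, a FASTK family RNA-binding protein, fell by 1.01 (SE 0.054), from 123.0 ± 4.07 to 60.9 ± 3.63 CPM. Elac2, which cuts the 3′ ends of tRNAs, fell by 1.01 (SE 0.073), from 78.2 ± 2.81 to 38.9 ± 3.82 CPM, and Ptcd1 fell by 0.53 (SE 0.074), while Ptcd2 rose by 0.36 (SE 0.093).

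Among genes of mRNA stability and decay 3 of 15 rose and 8 fell (73.3% called against 68.6% of all tested genes, median -0.23). Rexo2, which degrades very short RNAs, fell by 1.49 (SE 0.090), and Pde12, which removes poly(A) tails, fell by 0.81 (SE 0.11). Lrpprc, which stabilises mitochondrial mRNAs, fell by 0.33 (SE 0.049), from 143.6 ± 6.77 to 114.1 ± 4.63 CPM. Fastkd1 rose by 0.71 (SE 0.098), the poly(A) polymerase Mtpap by 0.32 (SE 0.083) and the ribonuclease Pnpt1 by 0.28 (SE 0.067). Of 13 translation factors 7 rose and 3 fell (76.9% called, median 0.35), with Guf1 at 1.08 (SE 0.068), Gfm2 at 0.51 and the membrane insertase Oxa1l at 0.37, and with Tufm at -0.60, Gfm1 at -0.57 and Tsfm at -0.37.

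In the list of mitochondrial content 13 of 17 fell and 3 rose (94.1% called against 68.6% of all tested genes, median -0.53). The chaperonin Hspd1 fell by 1.21 (SE 0.035), the malate dehydrogenase Mdh2 by 1.05 (SE 0.042) and the ADP/ATP carrier Slc25a4 by 0.95 (SE 0.044), while Hspa9 rose by 0.16, Tomm20 by 0.12 and Vdac1 by 0.10. Summed, these 17 genes were at 5231 to 5278 CPM in wild type and 3856 to 3940 CPM in the knockout. The highest in wild type were Hspd1, which went from 976.7 to 422.2 CPM, and Hspa9, from 942.6 to 1053 CPM. Of 8 tested regulators of mitochondrial biogenesis 1 rose and 4 fell (62.5% called, median -0.17), with Pprc1 at -0.87 (SE 0.046), Nrf1 at -0.55 (SE 0.069), Yy1 at -0.34 (SE 0.047) and Ppargc1b at 1.84 (SE 0.29).

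Lists of nuclear genes for each complex, which are not limited to its own subunits, included genes that rose and genes that fell. So did all tested genes (68.6% called, 34.5% upwards and 34% downwards). For complex I 7 of 36 tested rose and 16 fell (63.9% called, median -0.17). For complex III 2 of 9 rose and 4 fell (66.7%, median -0.13). For complex IV 4 of 15 rose and 8 fell (80%, median -0.13) and for ATP synthase 4 of 16 rose and 9 fell (81.2%, median -0.20). Ndufa6 of complex I rose by 0.87 (SE 0.068) and Ndufa11 fell by 0.53 (SE 0.071), Uqcrc2 of complex III rose by 0.23 (SE 0.047) and Uqcr11 fell by 0.72 (SE 0.10), and in ATP synthase the c-ring gene Atp5g2 rose by 0.28 (SE 0.049) while Atp5g1 fell by 1.25 (SE 0.082). Uqcrc1 of complex III also passed, but its knockout libraries were at 11.3, 167.5 and 1.76 CPM. In the list of complex IV, whose mt-Co1 rose most, Cox4i1 fell by 0.28 (SE 0.040), Cox5a by 0.42 (SE 0.047) and Cox7a2 by 0.55 (SE 0.073). There Cox6b2 rose by 1.33 (SE 0.13), Cox7a2l by 0.52 (SE 0.056) and Cox4i2 by 1.34 (SE 0.23).

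Assembly factors of complex IV included 4 that rose and 7 that fell of 17 tested (64.7% called against 68.6% of all tested genes, median -0.25). Cox17, a copper chaperone, rose by 1.70 (SE 0.20) and Cox18 by 0.40 (SE 0.10), whereas Coa7 fell by 1.24 (SE 0.11), Coa3, which works in the early assembly of mt-Co1, fell by 0.80 (SE 0.11) and Sco1 fell by 0.78 (SE 0.12). For complex I assembly 6 of 14 rose and 4 fell (71.4% called, median 0.03), and for complexes III and V 1 of 9 rose and 4 fell (55.6% called, median -0.00018). Of 13 genes of mitochondrial shape and turnover 9 rose and 2 fell (84.6% called, median 0.29), with the mitophagy receptor Bnip3 at 1.69 (SE 0.063), the fusion gene Mfn1 at 0.58 (SE 0.049) and the protease Yme1l1 at 0.43 (SE 0.040), and with Mfn2 at -1.27 (SE 0.073) and Fis1 at -0.46 (SE 0.080).

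Across the 6 libraries, the nuclear genes whose log2 CPM followed the summed CPM of the 10 most closely were Rps6 (Pearson r = 0.9996), Tial1 (0.9991), Cog5 (0.9988), Nampt (0.9988) and Washc4 (0.9984). These are 5 of 4725 genes compared, of which 1144 had r above 0.95, and the points share the same 2 groups of libraries.

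Gene counts were 7780368 to 9472916 per library. Several features of the libraries moved with the groups, and their part in the mitochondrial changes was not tested. Genes were given 38.4 ± 0.0268% of all reads in wild type and 36.4 ± 0.393% in the knockout, with no overlap. Of 8 endoderm markers 6 rose and 1 fell (87.5% called against 68.6% of all tested genes). Their summed level was 565.3 to 577.4 CPM in wild type and 999.3 to 1057 CPM in the knockout. Dab2 (244.3 CPM) and Gata6 (113.0 CPM), which rose, made up most of that wild-type sum, while Sox17 fell by 0.65. Of 8 mesenchyme markers 2 rose and 6 fell (100% called), with 3228 to 3289 and 1422 to 1447 CPM. Most of that wild-type sum was Fn1 (1680 CPM) and Vim (994.1 CPM), which fell, while Pdgfra rose by 1.22 and Col1a2 by 1.24. Of 8 neural progenitor markers 5 were tested, 1 rose and 2 fell (60% called, 366.9 to 388.6 and 90.5 to 94.8 CPM), with Fabp7 at 0 in every library and Sox1 at 1.98 and 1.84 CPM. Most of that wild-type sum was Nes (231.4 CPM) and Cdh2 (142.9 CPM), which fell. Pax6 rose by 1.16, and Sox1 and Pax3 did not pass. Of 5 tested neuron markers 1 rose and 3 fell (80% called, 161.9 to 173.0 and 83.6 to 84.4 CPM). Tubb3 fell from 62.7 to 2.04 CPM, Gap43 from 29.4 to 7.72 and Stmn2 from 65.5 to 54.9, while Map2 rose from 5.47 to 16.9. Of 8 pluripotency markers 3 rose and 4 fell (87.5% called, 1139 to 1168 and 897.8 to 935.0 CPM). Of 6 tested heart and muscle markers 3 fell and 3 did not pass (50% called, 38.2 to 44.0 and 17.5 to 23.4 CPM). Knockout replicate 1 stood apart with 1.04% of counts in genes over ribosomal RNA repeats, against 0.0726 to 0.118% elsewhere, and without it the ratio of the summed mitochondrial shares was 1.64.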

How the data were processed

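The authors deposited raw gene counts, 1 table for each library keyed by Ensembl identifier, with 5 closing tallies of reads given to no gene, which were left out. HISAT2 2.1.0, HTSeq 0.9.1, DESeq2 1.18.1 and the build mm10 are named in the submitters' processing notes. Annotation release, strand setting, read length, deletion position and clone number are not given in the sources used here. Symbols and sequences came from GENCODE M21 (GRCm38), with 52403 of 52636 identifiers matched. Strand was checked on 101 single-exon genes that lie within opposite-strand exons, and their median read density was 0.708 of the host's.

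The test on these counts used edgeR 4.0.16 under R 4.3.3 (filterByExpr with a minimum count of 10, TMM, quasi-likelihood F test, Benjamini-Hochberg over 15816 genes, threshold 0.05), checked on simulated data. SEs are the absolute log2 fold change over the root of F. Nuclear copies were found with blastn at 95% identity or more over 100 bases. The genes and lists were chosen with earlier results of these data known. Named genes are the 10, other tested mitochondrial genes, copies, up to 3 per direction of each list by adjusted p, and the 5 with the closest pattern. Alternatives were DESeq2 1.42.0, limma-voom 3.58.1, other scalings and filters, the replicate number as a block and each library left out. P-values measure the spread between these libraries.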

Additional observations from a re-analysis of the deposited data

Results flagged for a closer look

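The tally of reads aligned to more than 1 place, which enters no gene count, was higher in the knockout. It held 14.4, 14.6 and 15.0% of all reads in knockout replicates 1 to 3, a mean of 14.6 ± 0.317%, and 13.8% in each wild-type library (13.8 ± 0.0137%). Reads of mt-Co2, mt-Co3, mt-Atp6 and the copied parts of mt-Co1 and mt-Nd4 can fall into this tally, and how many do was not tested.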

How the results depend on the processing

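Under all 15 alternatives, 7 or 8 of the 10 genes rose and 1 fell, while 40.7% (no filter) to 68.7% of all tested genes passed. The ratio of the summed shares was 1.51 to 1.61 with other denominators or added copies and 1.54 to 1.64 with each library left out (1.60 as reported). The log2 fold change of mt-Nd2 ranged from -0.016 to 0.033 with each library left out, at -0.016 when wild-type replicate 2 was out and at -0.0064 when knockout replicate 3 was, and that of mt-Nd6 ranged from -0.0031 (without knockout replicate 3) to 0.16. mt-Nd6 passed with upper-quartile scaling (edgeR adjusted p = 0.0198), with no filter (0.0359), with the replicate block (0.0169), without knockout replicate 1 (0.00435) and without knockout replicate 2 (0.0198). Relative to the pool of the 10, 1 gene rose and 6 fell. With mt-Co1 out of the pool 6 rose and 2 fell (66.5% of all tested genes passed), with the mt-Nd genes as the pool 6 rose and 3 fell (67.8%), and with DESeq2 on all tested genes, its size factors taken from the 10, 2 rose and 3 fell (65.8%). With the replicate block 2 rose (77.2%), mt-Co2 being the second (edgeR adjusted p = 0.0478). With each library left out 1 to 3 rose and 6 fell (71.5 to 75%), the 3 being without knockout replicate 3. Same-numbered libraries did not deviate together (correlations 0.013, 0.0049 and -0.013), not every library correlated best with its own number, and the block moved the count of changed genes from 10848 to 10862. Depth limits mt-Co2, mt-Co3 and mt-Atp6, with 69 to 398 counts per library.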

Other observations

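Knockout replicate 3 had the highest mt-Co1 level and the lowest mt-Co2, mt-Co3 and mt-Atp6 levels of its group. Of the counts given to mt-Co3 or Gm28437, mt-Co3 took 39.9% in knockout replicate 3 (95% Wilson interval 34.9 to 45.1%, counting error only), 56.9% in knockout replicate 1 (52.7 to 61.04%) and 56.0% in knockout replicate 2 (51.0 to 60.9%), and 52.05 to 60.2% in the wild-type libraries. For mt-Atp6 and Gm10925 the share in knockout replicate 3 was 25.5% (21.6 to 29.8%), against 35.03 and 36.4% in the other knockout libraries and 28.3 to 38.7% in wild type. For mt-Co2 and Gm28661 it was 56.3% (51.9 to 60.6%), against 64.5 and 62.5%, and 54.7 to 65.4% in wild type. With the counts of each pair added, the knockout libraries had 492 to 617 counts for mt-Co2, 351 to 541 for mt-Co3 and 428 to 511 for mt-Atp6, and the wild-type libraries 289 to 362, 206 to 261 and 244 to 319, with no overlap.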
